A study of Gallus gallus with 21 samples.

Results

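The genes described here encode secreted antagonists and modulators of bone morphogenetic proteins (BMPs), together with a membrane pseudoreceptor. They are NOG, CHRD, CHRDL1, GREM1, BAMBI, SMOC2, SOSTDC1, TWSG1 and BMPER. They were chosen by function, with earlier results of these data known, and matched by symbol. All 9 were found in the table of experiment 1, among 13815 rows, and in the table of experiment 2, among 23789 rows. The RNA came from contour feather follicles of white leghorn chickens, all male, untreated and 1 year of age. Experiment 1 held 12 libraries of early growth follicles, 3 each of the dermal papilla at the follicle base, the dermal sheath around it, and the peripheral and central zones of the pulp, the mesenchyme inside the growing feather. In experiment 2, 9 libraries followed the pulp through stages, with 2 from early growth, 2 from late growth, 2 from follicles near rest and, from resting follicles, 3 of the apical dermal papilla. The labels name no mutation, transgene or pooling of birds, and nothing in them assigns replicates to different birds. The p-values therefore rest on the spread between libraries alone, which may be technical.

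BMPs are secreted ligands of the TGF-beta superfamily that bind serine-threonine kinase receptors and act through SMAD proteins. Noggin (NOG), chordin (CHRD), the chordin-like protein CHRDL1 and gremlin (GREM1) bind BMP ligands outside the cell and keep them from their receptors, and the sclerostin relative SOSTDC1 binds BMPs as well as Wnt co-receptors. TWSG1 and BMPER bind both BMPs and chordin and can hinder or promote signalling, SMOC2 is a calcium-binding matricellular protein related to the BMP inhibitor SMOC1, and BAMBI is a transmembrane pseudoreceptor without a kinase domain and so not itself secreted. In the chicken feather follicle, the balance of BMPs and noggin is known to shape the branching of barbs.

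Values are TPM, the unit of both tables, which gives each gene's part of the transcript total after dividing by length, so that levels of genes can be compared, and keeps no sequencing depth. The depth of the libraries is therefore unknown, and a value of 0 is given only as listed at 0. Each library had from 12569 to 13451 genes at 1 TPM or more. In experiment 1 a list of 6 dermal papilla markers in the table summed to 5014 to 5640 TPM in papilla libraries and to 492 to 1002 TPM in the other 9. The list was chosen with earlier results of these data known. Most of the papilla sum came from WFIKKN2, which averaged 3546.7 TPM there, and no sum without it is given. Against the sheath all 6 markers were called higher in the papilla, as were 21.7% of all genes tested. Against peripheral and central pulp 4 were called higher and 1 lower in each. The shares of all genes called higher and lower were 21.7% and 35.6% against peripheral pulp and 23.7% and 29.2% against central pulp. In experiment 2 the list's 7 markers in the table summed to 524 to 641 TPM in the resting apical papilla, against 579 to 640 TPM in early growth pulp. The sums were 338 to 345 TPM in late growth pulp and 139 to 197 TPM in near resting pulp. The list thus set the resting apical papilla apart from the later pulp stages but not from early growth pulp. WFIKKN2 was at 0.0297 ± 0.0515 TPM in the resting apical papilla. Markers of pulp summed to 4833 to 17577 TPM in the pulp libraries of experiment 1, against 86.3 to 615 TPM in papilla and sheath. In experiment 2 they summed to 459 to 605 TPM in the resting apical papilla, against 3748 to 9966 TPM in the 6 pulp libraries of that table. The near resting pulp libraries differed most within a group, with an SD of 0.643 for the log2 difference over genes, against 0.322 in the closest pair of all. There, 8 keratinocyte markers summed to 10558 TPM in replicate 1 and to 2325 TPM in replicate 2. Whether epidermal cells in these samples bear on the results was not tested.

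The question in experiment 1 was how the BMP antagonists are distributed over the dermal parts of a growing follicle. Their distribution was uneven, and different members were highest in different parts. In these early growth follicles NOG, CHRD, TWSG1 and BMPER were highest in the dermal papilla. CHRDL1 was high in papilla and sheath and nearly missing from both pulp parts. SMOC2 was highest in the sheath, GREM1 in peripheral pulp, and SOSTDC1 and BAMBI in central pulp. All 9 members differed between the 4 parts in limma's F test at an adjusted p under 0.05, as did 76.3% of all 13804 genes tested, so a call by itself says little about the members. All 9 passed the filter on low values. Because these are bulk samples, fewer cells of a type and less RNA per cell cannot be told apart.

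**Figure D1:**
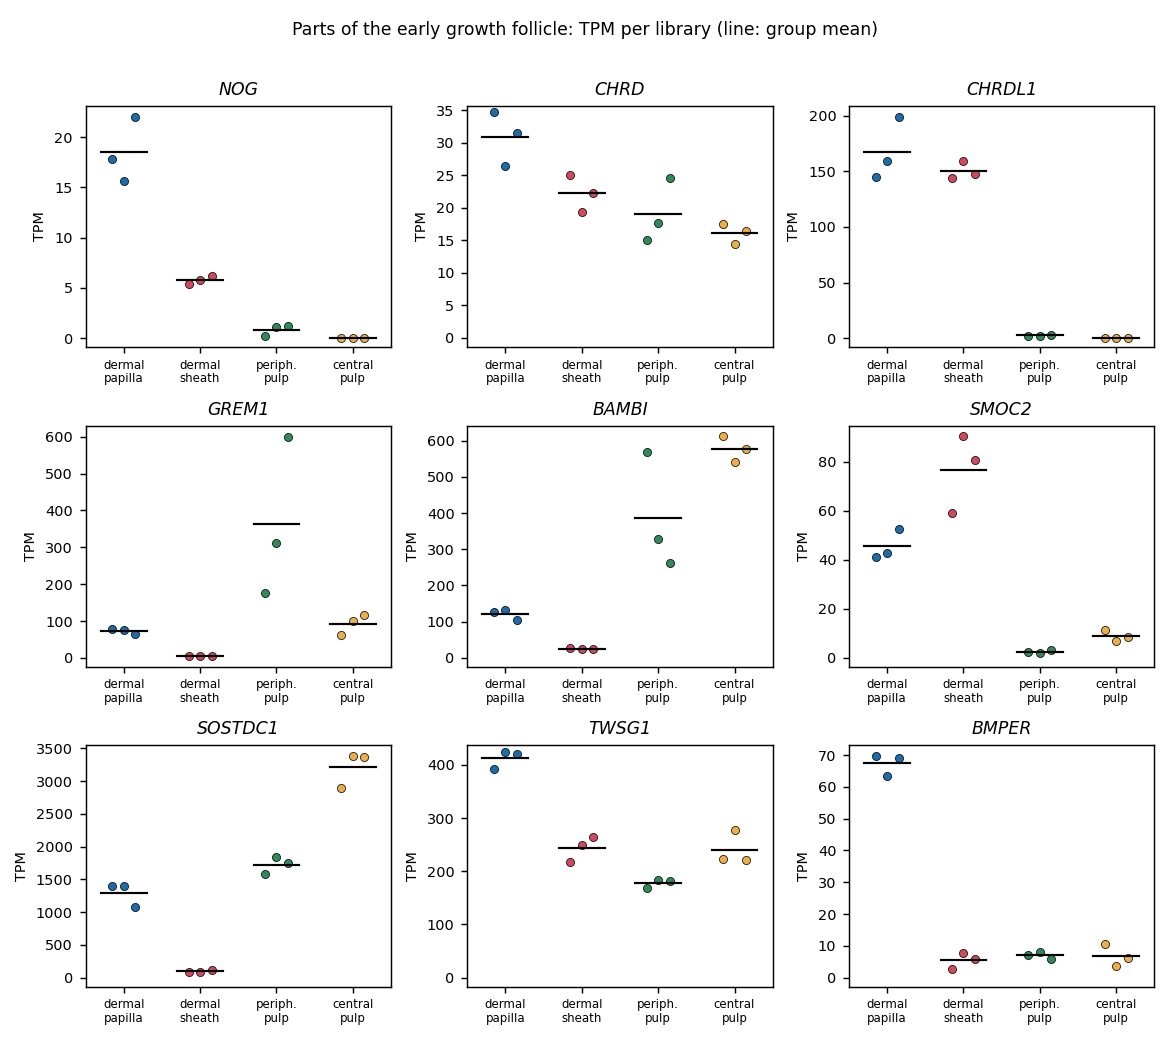
TPM of the 9 genes in each library of experiment 1 (points) with group means (lines), on a linear axis per gene. CHRDL1 is at 144 to 199 TPM in papilla and sheath libraries and at or below 3.13 TPM in pulp libraries, while GREM1 is lowest in the sheath.

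Noggin, the high-affinity trap of BMP2, BMP4 and BMP7, was highest in the papilla of the early growth follicle and next highest in its sheath. NOG stood at 17.8, 15.6 and 22.0 TPM in the 3 dermal papilla libraries, 5.34, 5.80 and 6.19 TPM in the sheath and 0.196, 1.13 and 1.18 TPM in peripheral pulp, and was listed at 0 in all 3 central pulp libraries. The 4 ranges did not overlap. Papilla exceeded sheath by a log2 fold change, on the log2(TPM + 1) scale used throughout, of 1.51 ± 0.24 (SE, adjusted p = 4.7e-04 by limma with Benjamini-Hochberg adjustment). Against peripheral pulp the difference was 3.45 ± 0.24 for the papilla and 1.93 ± 0.24 for the sheath, and no fold is given against central pulp. The call of peripheral over central pulp (adjusted p = 0.025) was lost without peripheral pulp replicate 2 or 3 or any central pulp replicate (adjusted p-values of 0.055 to 0.091) and with quantile normalization (adjusted p = 0.063). Sizes of fold changes near 0 TPM depend on the pseudocount: with 0.1 in place of 1, NOG exceeded peripheral pulp by 4.57 in the papilla and by 2.92 in the sheath.

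Chordin, which binds BMPs through cysteine-rich repeats and is cut by tolloid proteases, had the smallest ratio between its highest and lowest group mean among the 9 genes, at 1.92. CHRD levels were 34.7, 26.5 and 31.4 TPM in the papilla, 25.1, 19.3 and 22.3 in the sheath, 15.0, 17.7 and 24.5 in peripheral pulp and 17.4, 14.4 and 16.5 in central pulp. Papilla libraries lay above all the others, whereas sheath and peripheral pulp overlapped. The papilla was higher than peripheral pulp by 0.69 ± 0.17 (adjusted p = 0.0048) and than central pulp by 0.89 ± 0.17 (adjusted p = 9.0e-04). Against the sheath the log2 difference of 0.45 ± 0.17 missed the threshold (adjusted p = 0.057), and was called without papilla replicate 2 (adjusted p = 0.047) or peripheral pulp replicate 1 (0.033) or 3 (0.023), with the replicate block (0.046) and in a fit of those 2 groups alone (0.027). Sheath against central pulp was called at 0.44 ± 0.17 (adjusted p = 0.046). That call was lost without papilla replicate 1 or 3, sheath replicate 1 or 3, peripheral pulp replicate 2 or any central pulp replicate, with adjusted p-values of 0.051 to 0.15, and with plain variances (adjusted p = 0.054). Sheath against peripheral pulp was not called (0.23 ± 0.17, adjusted p = 0.27). It was called without peripheral pulp replicate 3 (0.42, adjusted p = 0.037), with median-of-ratios scaling (0.43, adjusted p = 0.042) and with quantile normalization (0.41, adjusted p = 0.048).

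In the early growth follicle the chordin relative CHRDL1 divided papilla and sheath from pulp. CHRDL1 was at 145, 159 and 199 TPM in papilla libraries and at 144, 159 and 148 TPM in sheath libraries, and the overlapping ranges gave no call (0.15 ± 0.16, adjusted p = 0.49). In peripheral pulp it was at 2.05, 1.89 and 3.13 TPM, and in central pulp at 0.121 TPM in 1 library and listed at 0 in the other 2. Every papilla and sheath library was far above every pulp library. The log2 fold change against peripheral pulp was 5.66 ± 0.16 for the papilla and 5.51 ± 0.16 for the sheath (adjusted p = 2.6e-10 and 2.3e-10), and peripheral exceeded central pulp by 1.67 ± 0.16 (adjusted p = 2.6e-05), or by 4.20 with a pseudocount of 0.1. A list of 8 smooth muscle markers moved with this split, summing to 13925 to 29506 TPM in papilla and sheath libraries and to 151 to 1227 TPM in pulp libraries, and its part in the result was not tested.

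Gremlin and SOSTDC1, both of the cystine-knot antagonists, were lowest in the sheath and abundant in pulp. GREM1 was at 79.7, 76.9 and 66.0 TPM in the papilla, 5.01, 4.55 and 5.98 in the sheath, 175, 311 and 601 in peripheral pulp and 61.9, 99.2 and 117 in central pulp. Peripheral pulp libraries were all the highest but spread widely, and papilla and central pulp overlapped without a call (-0.27 ± 0.37, adjusted p = 0.57). Peripheral exceeded central pulp by 1.82 ± 0.37 (adjusted p = 0.0049), and the papilla exceeded the sheath by 3.61 ± 0.37 (adjusted p = 4.1e-05). Within peripheral pulp the library with the highest GREM1, replicate 3, also had the highest sum over 5 erythroid markers. That sum was 3160 TPM, against 1211 and 1754 TPM in replicates 1 and 2. The sums of endothelial markers (531 TPM against 318 and 426 TPM), smooth muscle markers and dermal papilla markers were highest there too. Pulp markers had their lowest sum there, at 4833 TPM against 8299 and 5500 TPM. These relations were not tested.

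SOSTDC1 had the highest level of the 9 in 3 of the 4 parts. Its values were 1398, 1403 and 1078 TPM in the papilla, 87.1, 89.2 and 112 in the sheath, 1584, 1838 and 1746 in peripheral pulp and 2894, 3379.6 and 3359 in central pulp. The ranges of the 4 parts did not overlap, and the sheath was below all others. The papilla differed from the sheath by 3.73 ± 0.12 (adjusted p = 1.4e-08), the sheath from central pulp by -5.05 ± 0.12 (adjusted p = 8.9e-11), and peripheral from central pulp by -0.90 ± 0.12 (adjusted p = 4.2e-04). The smaller difference of papilla from peripheral pulp (-0.42 ± 0.12, adjusted p = 0.012) was not called with median-of-ratios scaling (-0.27, adjusted p = 0.069) or without papilla replicate 3 (-0.30, adjusted p = 0.055).

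Among the modulators, TWSG1 was abundant in all 4 parts and BMPER was highest in the papilla. TWSG1, the twisted gastrulation protein, measured 393, 424 and 421 TPM in the papilla, 217, 249 and 265 in the sheath, 169, 183 and 181 in peripheral pulp and 223, 278 and 221 in central pulp. The papilla was above all others, with log2 fold changes of 0.76 ± 0.10 against the sheath, 1.21 ± 0.10 against peripheral pulp and 0.78 ± 0.10 against central pulp. Sheath and central pulp overlapped (0.02 ± 0.10, adjusted p = 0.88). BMPER, the vertebrate crossveinless-2, read 69.7, 63.3 and 69.1 TPM in the papilla, against 2.86, 7.64 and 5.95 in the sheath, 7.11, 8.11 and 5.74 in peripheral pulp and 10.6, 3.52 and 6.26 in central pulp. Its papilla values exceeded all others with log2 fold changes of 3.48 ± 0.34, 3.11 ± 0.34 and 3.24 ± 0.34 against sheath, peripheral and central pulp (adjusted p = 1.9e-05, 1.0e-05 and 7.7e-06). The other 3 parts overlapped, and no contrast among them was called.

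SMOC2, which sits in the extracellular matrix, was the member highest in the sheath. Levels of SMOC2 were 41.1, 42.7 and 52.8 TPM in the papilla, 59.4, 90.5 and 80.9 in the sheath, 2.30, 2.19 and 3.06 in peripheral pulp and 11.6, 6.79 and 8.50 in central pulp. No 2 parts overlapped. The papilla was lower than the sheath by a log2 fold change of -0.73 ± 0.20 (adjusted p = 0.014), a call lost without papilla replicate 1 (adjusted p = 0.052) or sheath replicate 2 (adjusted p = 0.060). Sums of other cell type markers were highest in the sheath too: 5781 to 8649 TPM against 84.4 to 1369 TPM in the other parts for keratinocytes, 896 to 1044 against 318 to 585 TPM for 5 endothelial markers, and 4067 to 4601 against 1138 to 3160 TPM for 5 erythroid markers. In papilla against sheath 8 of 8 keratinocyte, 3 of 5 endothelial and 4 of 5 erythroid markers were called lower (all genes 16.0%), and 1 erythroid marker higher (all genes 21.7%). The erythroid marker ALAS2 was lowest in the sheath, at 73.1 TPM on average. The endothelial marker CDH5 was highest in central pulp, at 238 TPM against 185 TPM in the sheath. The part of these markers in this result was not tested. The sheath exceeded peripheral pulp by 4.46 ± 0.20 (adjusted p = 6.6e-09), and peripheral pulp was below central pulp (-1.48 ± 0.20, adjusted p = 3.6e-04).

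BAMBI, which takes up a place in receptor complexes without passing on the signal, was high in pulp. BAMBI transcripts were at 126, 132 and 105 TPM in the papilla, 27.7, 24.4 and 23.6 in the sheath, 569.8, 329 and 263 in peripheral pulp and 612, 540.4 and 578 in central pulp. Sheath libraries were the lowest and papilla libraries the next, while the pulp parts overlapped through replicate 1 of peripheral pulp. The papilla was higher than the sheath (2.22 ± 0.22, adjusted p = 2.6e-05) and lower than central pulp (-2.25 ± 0.22, adjusted p = 5.9e-06). Peripheral against central pulp missed the threshold (-0.65 ± 0.22, adjusted p = 0.051), and without that library it was called at -0.97 (adjusted p = 3.1e-04). With all libraries of the experiment it was called with the 5 TPM filter (adjusted p = 0.049), median-of-ratios scaling (0.037), quantile normalization (0.046) and the replicate block (0.026). Keratinocyte markers summed to 1369 TPM in the same library, against 444 and 514 TPM in the other 2.

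In pairs of parts, the papilla was the side with more high members, and the members were counted against all genes tested. In dermal papilla against sheath, 6 higher and 1 lower of 9 were called, where 21.7% of all genes were called higher and 16.0% lower, with a median log2 fold change of 1.51 over the members and 0.06 over all genes. In papilla against peripheral pulp, 6 higher and 3 lower were called (all genes 21.7% and 35.6%), with medians of 1.21 and -0.17. In papilla against central pulp it was 6 higher and 2 lower (all genes 23.7% and 29.2%), with medians of 0.89 and -0.057. Sheath against peripheral pulp gave 4 higher and 3 lower (all genes 20.2% and 39.1%), with medians of 0.23 and -0.21. Sheath against central pulp also gave 4 higher and 3 lower (all genes 22.9% and 33.6%), with medians of 0.02 and -0.11. Peripheral against central pulp gave 3 higher and 3 lower (all genes 15.6% and 9.51%), with medians of 0.13 and 0.078. These contrasts share libraries, so their counts are not independent. With median-of-ratios scaling the split of calls over all genes came to 3753 higher and 3914 lower in papilla against peripheral pulp, in place of 2993 and 4921. In sheath against peripheral pulp it came to 3811 and 3904 in place of 2793 and 5400, and in peripheral against central pulp to 1368 and 1816 in place of 2159 and 1313.

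Set against each other by TPM, the members made a different mixture in each part. The 9 genes together came to 2044 to 2343 TPM in the papilla, 573 to 669 in the sheath, 2525 to 2828 in peripheral pulp and 3831 to 4322 in central pulp. SOSTDC1 made up 52.7% to 60.6% of that sum in the papilla and 75.5% to 78.2% in central pulp, against 13.7% to 16.7% in the sheath, where TWSG1 was the highest at 243 ± 24.3 TPM and CHRDL1 next at 150.3 ± 8.04 TPM (mean ± SD, n = 3). In the papilla TWSG1 and CHRDL1 followed SOSTDC1, in central pulp BAMBI and TWSG1 did. In peripheral pulp BAMBI, at 387 ± 162 TPM, and GREM1, at 362 ± 217 TPM, overlapped in level. NOG was the lowest of the 9 in the papilla and in peripheral pulp. In central pulp NOG was listed at 0 in all 3 libraries and CHRDL1 in 2 of 3. In the sheath NOG, BMPER and GREM1 were the lowest with overlapping ranges.

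**Figure D2:**
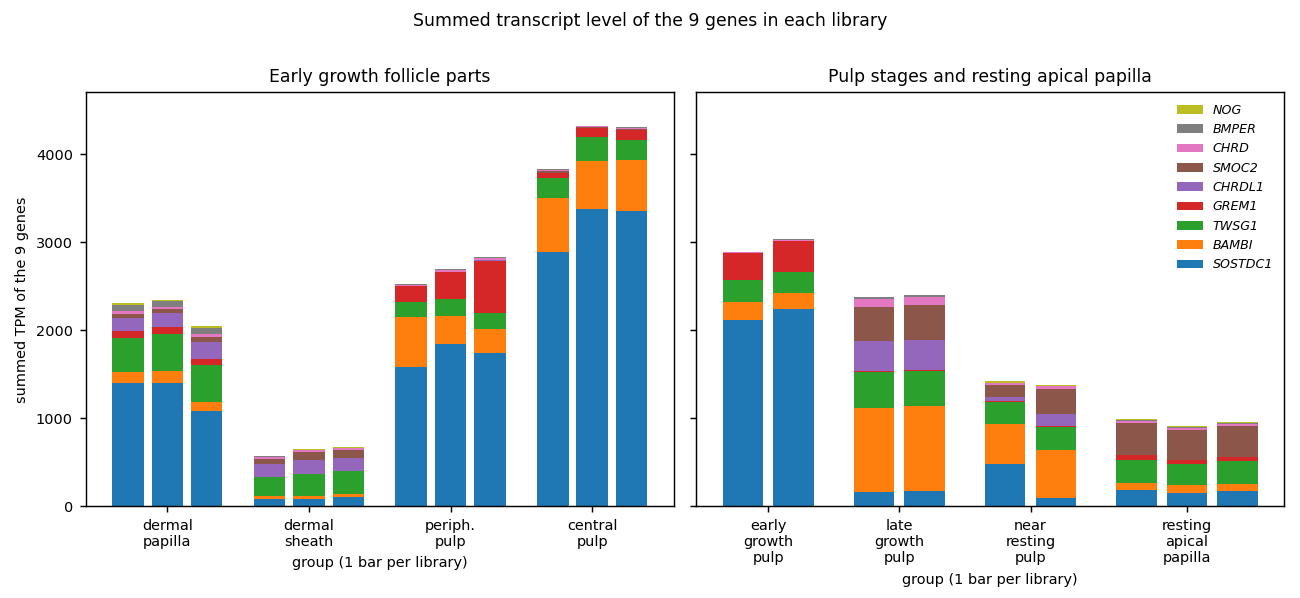
Summed TPM of the 9 genes, 1 stacked bar per library, with experiment 1 on the left and experiment 2 on the right. SOSTDC1 makes up most of the sum in papilla, peripheral, central and early growth pulp libraries and 6.86% to 34.1% of it in late growth, near resting and resting libraries.

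As a description of pattern, each member was set against 8833 other genes by Pearson's r of log2(TPM + 1) over the 12 libraries of experiment 1, which fall into 4 groups, so that any genes sharing a group pattern score high. NOG was most like KLHDC8B, TMEM200A and KLHL36 (r of 0.990 to 0.993), and CHRDL1 was most like CTDSPL, ENGASE and SCIN (0.992 to 0.993). The sheath-high pattern of SMOC2 was closest to CILP, a cartilage matrix protein, LYVE1, a hyaluronan receptor of lymphatic vessels, and TGFB2, a TGF-beta ligand (0.990 to 0.994). For SOSTDC1 the nearest genes were PENK, the enkephalin precursor, PSMG2 and RERG (0.989 to 0.991), and for BAMBI they were OLFM1, MYLIP and CMC2 (0.986 to 0.987). GREM1 was nearest to MUM1, KCNS3 and KIAA0907 (0.981 to 0.986), and TWSG1 to ELOVL5, SERINC3 and GORAB (0.980 to 0.984). CHRD was nearest to SCARF2, C7orf26 and RUSC1 (0.964 to 0.981), and BMPER to ITGA8, UBE2H and TESK1 (0.964 to 0.969).

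The question in experiment 2 was how these genes change as the pulp passes from early growth to near rest, and how they stand in the papilla at rest. Between early and late growth the set turned over: NOG, CHRD, CHRDL1, SMOC2, BMPER, BAMBI and TWSG1 rose, and GREM1 and SOSTDC1 fell. Cell type markers differed between the same stages: 5 of 5 endothelial and 6 of 8 smooth muscle markers were called higher in late growth, and 7 of 8 keratinocyte markers lower. Their sums in late against early growth pulp were 529.8 to 548 against 239 to 245 TPM for endothelial, 684 to 688 against 200.2 to 244 TPM for smooth muscle and 314 to 320.2 against 1151 to 1451 TPM for keratinocyte markers. Of 5 pulp markers, 1 was called higher and 4 lower (all genes 22.4% and 30.8%). The pulp markers summed to 4508 to 4604 TPM in late against 7342 to 9966 TPM in early growth pulp. The part of these markers in the changes was not tested. Toward rest, CHRD, CHRDL1, BAMBI, TWSG1, BMPER and GREM1 fell. In near resting against late growth pulp 8 of 8 keratinocyte markers were called higher (all genes 8.77%). There, 7 of 8 smooth muscle and 5 of 5 endothelial markers were called lower (all genes 22.3%). Smooth muscle markers summed to 183 to 235 TPM near rest, against 684 to 688 TPM in late growth. Endothelial markers summed to 241 to 310 TPM, against 529.8 to 548 TPM. The part of these markers in the falls was not tested. In the resting apical papilla SMOC2 was the highest member and CHRDL1 the lowest. All 9 members were called in the F test over the 4 groups, beside 85.0% of 14915 genes tested, and all 9 passed the filter.

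**Figure D3:**
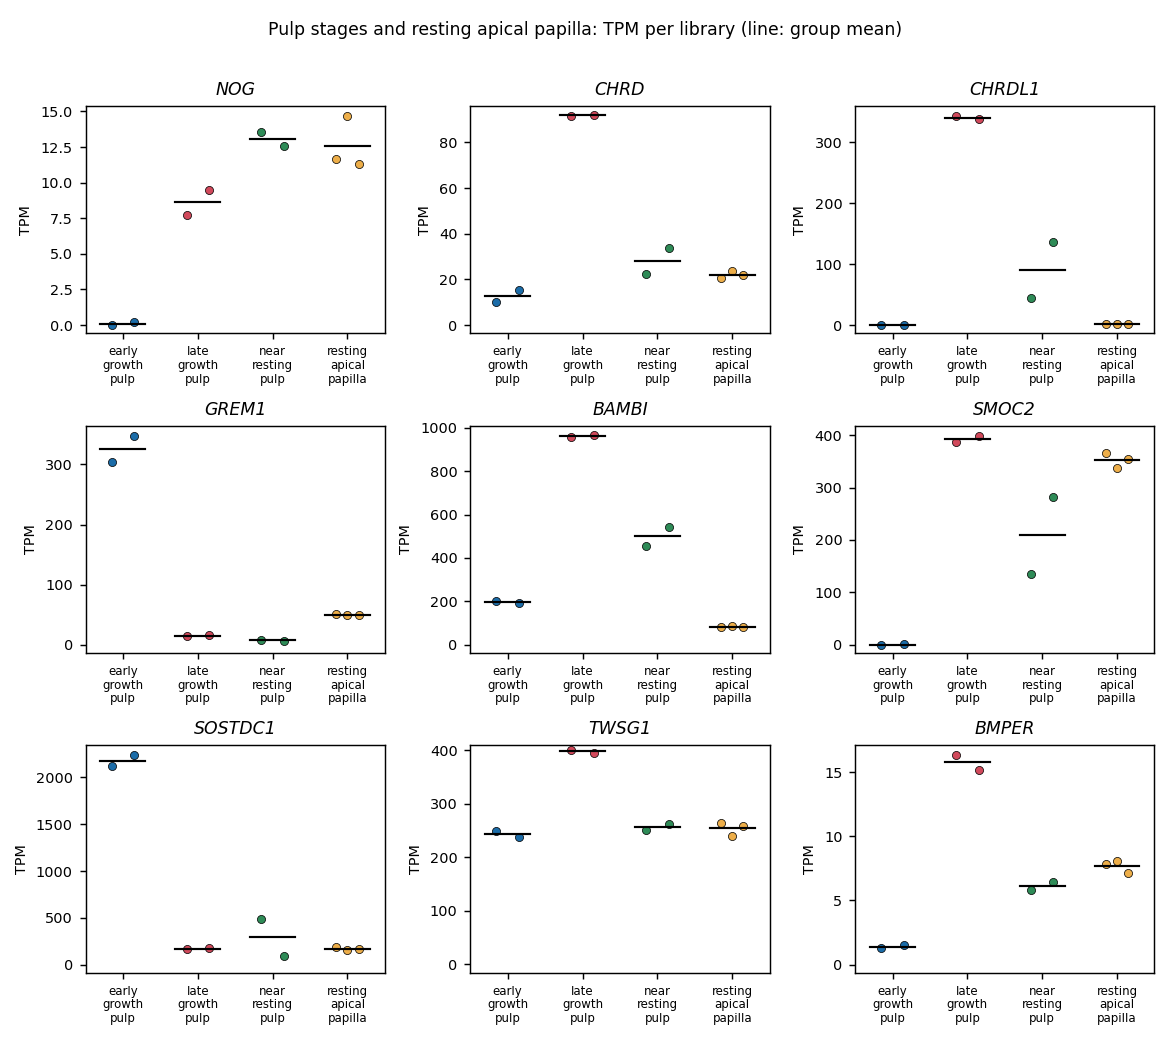
TPM of the 9 genes in each library of experiment 2 (points) with group means (lines), on a linear axis per gene. GREM1 and SOSTDC1 are highest in early growth pulp, and CHRD, CHRDL1, BAMBI, TWSG1 and BMPER are highest in late growth pulp.

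NOG was near 0 in early growth pulp and higher at all later stages. It was listed at 0 and at 0.184 TPM in early growth pulp, and stood at 7.76 and 9.47 TPM in late growth, 13.5 and 12.5 TPM near rest and 11.7, 14.7 and 11.3 TPM in the resting apical papilla. Early growth libraries were below all others, and the near resting and resting ranges overlapped. The log2 fold change was 3.14 ± 0.20 for late against early growth (adjusted p = 1.2e-05), and 5.69 with a pseudocount of 0.1. Near resting against late growth pulp missed the threshold (0.55 ± 0.20, adjusted p = 0.071), but was called with median-of-ratios scaling (0.73, adjusted p = 0.026), quantile normalization (0.63, adjusted p = 0.038) and plain variances (adjusted p = 0.043). The resting apical papilla exceeded late growth pulp by 0.49 ± 0.18 (adjusted p = 0.048), a call that was lost when any library of either group was left out. With all libraries it was lost with a pseudocount of 0.1 (adjusted p = 0.30), median-of-ratios scaling (0.084), quantile normalization (0.067) and the replicate block (0.076).

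CHRD peaked in late growth. Its level was 10.2 and 15.3 TPM in early growth, 91.7 and 92.0 TPM in late growth, 22.4 and 33.6 TPM near rest and 20.5, 23.8 and 22.1 TPM in the resting apical papilla. Late growth libraries stood far above the rest, and near resting and resting libraries overlapped. In the resting apical papilla CHRD exceeded early growth pulp by 0.77 ± 0.20 (adjusted p = 0.010), a call lost without early growth replicate 1 (0.50, adjusted p = 0.087). CHRD rose in late against early growth (2.78 ± 0.22, adjusted p = 3.6e-05) and fell in near resting against late growth pulp (-1.71 ± 0.22, adjusted p = 0.0010).

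The largest stage differences were those of CHRDL1 and SMOC2. CHRDL1 was at 0.807 and 0.843 TPM in early growth, 343 and 338 TPM in late growth, 44.3 and 137 TPM near rest and 1.72, 1.58 and 1.44 TPM in the resting apical papilla. Late growth against early growth gave 7.55 ± 0.42 (adjusted p = 6.7e-06), near resting against late growth -2.11 ± 0.42 (adjusted p = 0.0075), and the resting apical papilla against near resting pulp -4.94 ± 0.39 (adjusted p = 2.4e-05). Without near resting replicate 1 the fall toward rest was -1.31 and without replicate 2 it was -2.91 (adjusted p = 7.2e-04 and 2.2e-05), and it was not called when only those 2 groups were fitted (adjusted p = 0.064). Without the same libraries the resting apical papilla against near resting pulp came to -5.74 and -4.14, and was called in each. A pseudocount of 0.1 gave -5.54 for that contrast and 8.52 for late against early growth. SMOC2 read 0.0754 and 1.12 TPM in early growth, 386 and 398 TPM in late growth, 136 and 282 TPM near rest and 367, 338 and 354 TPM in the resting apical papilla. Only the early growth libraries were near 0, and late growth exceeded them by 8.02 ± 0.37 (adjusted p = 2.8e-06), or by 9.73 with a pseudocount of 0.1. Near resting against late growth pulp was not called (-0.998 ± 0.37, adjusted p = 0.077) but was without near resting replicate 2 (-1.52, adjusted p = 0.012) or either early growth replicate (adjusted p = 0.043 each). The resting apical papilla against late growth pulp was not called either (-0.15 ± 0.34, adjusted p = 0.73), except in a fit of those 2 groups alone (adjusted p = 0.031). Against near resting pulp it was not called, but was with quantile normalization (0.92, adjusted p = 0.041) and in a fit of those 2 groups (0.85, adjusted p = 0.049). It was also called without near resting replicate 2 (1.37) or either early growth replicate (0.85). With 1 library left out that difference ranged from 0.32 to 1.37. Both genes were lower in near resting replicate 1, the library with the higher keratinocyte sum, than in replicate 2. So were CHRD, BAMBI, TWSG1 and BMPER. In contrast, SOSTDC1 was higher in replicate 1, at 484 against 97.4 TPM, as were GREM1 and NOG.

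GREM1 and SOSTDC1 belonged to early growth pulp. GREM1 was at 305 and 348 TPM in early growth, 14.6 and 16.4 TPM in late growth, 8.55 and 6.29 TPM near rest and 50.6, 49.0 and 50.1 TPM in the resting apical papilla, and no 2 groups overlapped. It fell by late growth (-4.31 ± 0.14, adjusted p = 6.1e-07) and was higher in the resting apical papilla than in near resting pulp (2.61 ± 0.13, adjusted p = 2.4e-06). Near resting against late growth pulp (-0.98 ± 0.14, adjusted p = 0.0016) was not called in a fit of those 2 groups alone (adjusted p = 0.056). SOSTDC1 had 2122 and 2236 TPM in early growth, 163 and 175 TPM in late growth, 484 and 97.4 TPM near rest and 183, 155 and 171 TPM in the resting apical papilla. Late against early growth gave -3.68 ± 0.59 (adjusted p = 0.0012), with an SE that pools the spread of all groups, the near resting pair included. The near resting libraries lay on either side of the late growth and resting values, so near resting against late growth pulp was 0.36 ± 0.59 (adjusted p = 0.69). That difference was -0.79 (adjusted p = 0.0019) without near resting replicate 1 and 1.51 (adjusted p = 7.6e-05) without replicate 2. Near resting against early growth pulp, at -3.32 ± 0.59 (adjusted p = 0.0019), was -4.47 and -2.17 without the same libraries, and called in each.

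Of the modulators, TWSG1 and BMPER followed CHRD in peaking at late growth. TWSG1 was at 249 and 238 TPM in early growth, 401 and 395 TPM in late growth, 251 and 262 TPM near rest and 265, 239.9 and 258 TPM in the resting apical papilla. Late growth libraries were the highest, by 0.71 ± 0.077 against early growth (adjusted p = 1.7e-04). The other 3 groups lay within 238 to 265 TPM, and no contrast among them was called. With median-of-ratios scaling near resting exceeded early growth pulp (0.37, adjusted p = 0.012), and the resting apical papilla was below near resting pulp (-0.31, adjusted p = 0.016). With quantile normalization the resting apical papilla exceeded early growth pulp (0.23, adjusted p = 0.029). BMPER was weak, with 1.28 and 1.54 TPM in early growth, 16.3 and 15.2 TPM in late growth, 5.83 and 6.41 TPM near rest and 7.82, 8.04 and 7.10 TPM in the resting apical papilla. It rose in late against early growth (2.80 ± 0.16, adjusted p = 7.9e-06, and 3.40 with a pseudocount of 0.1) and fell in near resting against late growth pulp (-1.24 ± 0.16, adjusted p = 0.0011).

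The pseudoreceptor BAMBI also peaked in late growth pulp, and was lowest in the resting apical papilla. BAMBI was at 201 and 191 TPM in early growth, 958 and 966 TPM in late growth, 454 and 545 TPM near rest and 81.5, 85.3 and 82.3 TPM in the resting apical papilla. The 4 ranges did not overlap. It rose by 2.29 ± 0.095 in late against early growth (adjusted p = 1.8e-06), and was lower in near resting than in late growth pulp (-0.95 ± 0.095, adjusted p = 3.3e-04) and in the resting apical papilla than in near resting pulp (-2.57 ± 0.087, adjusted p = 5.1e-07).

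Counted over the 9 members, late against early growth pulp gave 7 higher and 2 lower, where 22.4% of all genes were called higher and 30.8% lower, with a median log2 fold change of 2.78 over the members and -0.11 over all genes. Near resting against late growth pulp gave 0 higher and 6 lower (all genes 8.77% and 22.3%), with medians of -0.98 and -0.16. Near resting against early growth pulp gave 6 higher and 2 lower (all genes 18.7% and 37.3%), with medians of 1.34 and -0.23. For the resting apical papilla, the count was 1 higher and 2 lower against near resting pulp (all genes 40.9% and 21.6%), with medians of -0.06 and 0.25. Against late growth pulp it was 2 higher and 5 lower (all genes 32.5% and 25.8%), with medians of -0.65 and 0.094. Against early growth pulp it was 4 higher and 3 lower (all genes 32.1% and 33.6%), with medians of 0.50 and 0. Over the 6 contrasts 40 of 54 member values were called, beside the shares of all genes given for each contrast. Median-of-ratios scaling gave splits over all genes of 2058 higher and 2027 lower in near resting against late growth pulp, in place of 1308 and 3333, of 4284 and 3994 in near resting against early growth pulp, in place of 2785 and 5558, and of 4418 and 4555 in the resting apical papilla against near resting pulp, in place of 6095 and 3221.

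**Figure D4:**
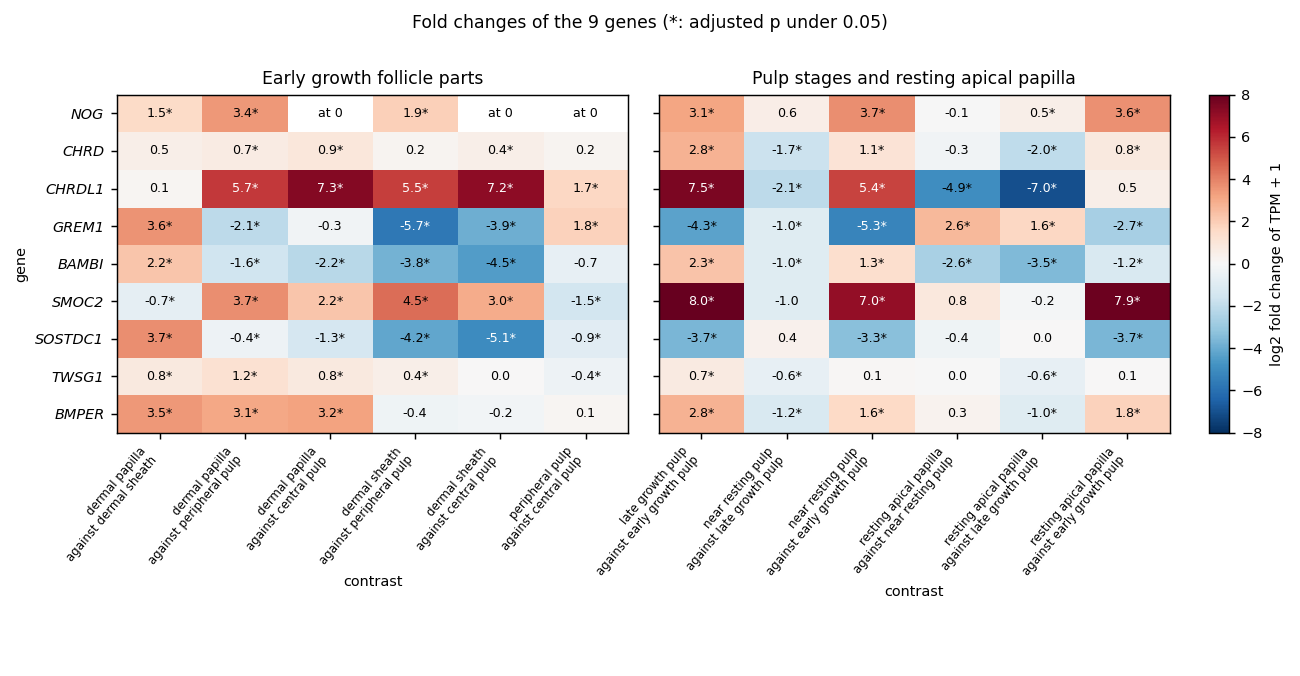
Log2 fold changes of TPM + 1 (colour and number) of the 9 genes in the 6 contrasts of each experiment, with an asterisk at an adjusted p under 0.05 by limma; "at 0" marks NOG against central pulp, where it is listed at 0. In late against early growth pulp GREM1 and SOSTDC1 are negative, at -4.31 and -3.68, and the other 7 genes are positive.

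The mixture of members changed with stage as well. The 9 genes summed to 2889 and 3032 TPM in early growth pulp, 2381 and 2404 TPM in late growth, 1419 and 1382 TPM near rest and 915 to 988 TPM in the resting apical papilla. Without SOSTDC1 the sums were 767 and 796 TPM, 2218 and 2229 TPM, 935 and 1284 TPM, and 760.1 to 805 TPM in the same order. BAMBI was the highest member in late growth pulp at 962 ± 5.49 TPM (SD, n = 2), and SMOC2 was the highest in the resting apical papilla at 353 ± 14.5 TPM (SD, n = 3).

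The experiments came as separate tables, and the sources used here state no common normalization, so levels across them are set side by side and not tested. Early growth pulp of experiment 2 had the low NOG, CHRDL1 and SMOC2 and the high SOSTDC1 and GREM1 of the pulp parts of experiment 1: SOSTDC1 averaged 2179 TPM there, and 1723 TPM in peripheral pulp and 3211 in central pulp. GREM1 averaged 326 TPM, against 362 TPM in peripheral and 92.7 TPM in central pulp. BAMBI was lower than in both pulp parts, at 196 TPM against 387 and 577 TPM. So was BMPER, at 1.41 TPM against 6.99 and 6.79 TPM. The later pulp stages did not share the low NOG, CHRDL1 and SMOC2 of the pulp parts. These genes averaged 8.61, 340 and 392 TPM in late growth pulp and 13.0, 90.6 and 209 TPM in near resting pulp. Between the resting apical and the growing dermal papilla, CHRDL1 averaged 1.58 ± 0.141 TPM at rest and 168 ± 28.0 TPM in growth, SOSTDC1 169.9 ± 14.0 and 1293 ± 186 TPM, and BMPER 7.66 ± 0.492 and 67.4 ± 3.53 TPM. SMOC2 averaged 353 ± 14.5 TPM at rest and 45.5 ± 6.36 TPM in growth, whereas NOG averaged 12.5 ± 1.85 and 18.5 ± 3.25 TPM, and CHRD 22.1 ± 1.64 and 30.9 ± 4.13 TPM (SD, n = 3 each). Stage, tissue sampled and table cannot be told apart in these values. The 8 smooth muscle markers summed to 215 to 222 TPM in the resting apical papilla and to 27258 to 29506 TPM in the growing papilla.

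Other genes of the pathway were taken from lists of 24 further extracellular modulators, 13 ligands, and 20 receptors, SMADs and targets, of which 16, 9 and 17 were tested in experiment 1 and 15, 10 and 17 in experiment 2. Among the further modulators, 5 higher and 3 lower (all genes 21.7% and 16.0%) were called in papilla against sheath, with the shares of all genes called higher and lower in brackets. The count was 6 higher and 7 lower (all genes 21.7% and 35.6%) in papilla against peripheral pulp and 8 higher and 6 lower (all genes 23.7% and 29.2%) in papilla against central pulp. In the sheath it was 5 higher and 6 lower (all genes 20.2% and 39.1%) against peripheral and 8 higher and 6 lower (all genes 22.9% and 33.6%) against central pulp, and in peripheral against central pulp 3 higher and 3 lower (all genes 15.6% and 9.51%). Follistatin (FST), which binds activins and some BMPs, was also lowest in the sheath and highest in central pulp, at 131 ± 18.4 TPM in the papilla, 21.9 ± 9.49 in the sheath, 367 ± 50.9 in peripheral pulp and 777 ± 101 in central pulp (SD, n = 3). CHRDL2, a relative of CHRDL1, was weak, at 11.7 ± 2.08 TPM in the papilla and 3.01 ± 1.01 TPM in the sheath and below 1 TPM on average in both pulp parts. FSTL1, a follistatin-like glycoprotein, was abundant throughout, from 1119.6 ± 35.5 TPM in the sheath to 2632 ± 163 TPM in central pulp, and CRIM1, a membrane protein that binds BMPs, was at 46.6 ± 2.82 and 54.7 ± 1.68 TPM in papilla and sheath against 22.0 ± 4.18 TPM in peripheral pulp and 24.2 ± 1.84 in central pulp.

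By stage, 4 higher and 5 lower (all genes 22.4% and 30.8%) of the 15 further modulators were called in late against early growth pulp, 3 higher and 6 lower (all genes 8.77% and 22.3%) in near resting against late growth and 4 higher and 6 lower (all genes 18.7% and 37.3%) in near resting against early growth pulp. The resting apical papilla had 7 higher and 5 lower (all genes 40.9% and 21.6%) against near resting, 6 higher and 4 lower (all genes 32.5% and 25.8%) against late growth and 5 higher and 7 lower (all genes 32.1% and 33.6%) against early growth pulp. SMOC1, a close relative of SMOC2, was at 42.2 ± 2.91 TPM in early growth pulp, 343 ± 4.45 TPM in late growth, 196 ± 6.34 TPM near rest (SD, n = 2 each) and 160.3 ± 5.76 TPM in the resting apical papilla (SD, n = 3), with a log2 fold change of 3.00 ± 0.079 in late against early growth (adjusted p = 4.0e-07). FST fell to 6.11 ± 1.51 TPM in late growth pulp, against 266 ± 21.0 TPM in early growth (-5.24 ± 0.29, adjusted p = 6.7e-06). NBL1, the DAN antagonist, averaged 349 TPM in late growth and 791 TPM in early growth pulp, and was lower in late than in early growth pulp (-1.18 ± 0.10, adjusted p = 4.4e-05). VWC2L, a small chordin-like protein, averaged 5.87, 8.44, 4.42 and 0.334 TPM in the same order of groups and was lower in the resting apical papilla than in near resting pulp (-2.03 ± 0.17, adjusted p = 3.9e-05).

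Among the BMP ligands, BMP4 and BMP7 were highest in the papilla and BMP2 in peripheral pulp. Of 9 ligands, 4 higher and 1 lower (all genes 21.7% and 16.0%) were called in papilla against sheath, 5 higher and 2 lower (all genes 21.7% and 35.6%) in papilla against peripheral pulp and 5 higher and 2 lower (all genes 23.7% and 29.2%) in papilla against central pulp. The counts were 4 higher and 3 lower (all genes 20.2% and 39.1%) in sheath against peripheral pulp, 4 higher and 3 lower (all genes 22.9% and 33.6%) in sheath against central pulp and 1 higher and 2 lower (all genes 15.6% and 9.51%) in peripheral against central pulp. BMP4 was at 900.2 ± 89.3 TPM in the papilla and 339 ± 21.2 TPM in the sheath, against 106 ± 30.2 TPM in peripheral pulp and 110.2 ± 17.5 in central pulp (SD, n = 3 each). BMP7 reached 164 ± 7.42 TPM in the papilla and exceeded the sheath by 2.27 ± 0.13 (adjusted p = 4.8e-07). BMP2 was higher in pulp, at 3.30 ± 1.67 and 3.39 ± 0.538 TPM in papilla and sheath and 32.5 ± 4.96 TPM in peripheral pulp and 16.4 ± 6.13 in central pulp, and BMP5 was at 0.951 ± 0.164 TPM in the papilla and 11.7 ± 2.75 TPM in peripheral pulp. In experiment 2, of 10 ligands, 6 higher and 1 lower (all genes 22.4% and 30.8%) were called in late against early growth pulp, 2 higher and 6 lower (all genes 8.77% and 22.3%) in near resting against late growth and 3 higher and 2 lower (all genes 18.7% and 37.3%) in near resting against early growth pulp. The resting apical papilla had 4 higher and 2 lower (all genes 40.9% and 21.6%) against near resting pulp, 4 higher and 3 lower (all genes 32.5% and 25.8%) against late growth pulp and 5 higher and 3 lower (all genes 32.1% and 33.6%) against early growth pulp. BMP4 rose in late against early growth (3.20 ± 0.16, adjusted p = 4.0e-06) and averaged 1044 ± 102 TPM in the resting apical papilla, against 239 ± 56.3 TPM in near resting pulp.

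Among 17 receptors, SMADs and targets, 6 higher and 1 lower (all genes 21.7% and 16.0%) were called in papilla against sheath, 6 higher and 3 lower (all genes 21.7% and 35.6%) in papilla against peripheral and 8 higher and 2 lower (all genes 23.7% and 29.2%) in papilla against central pulp. Sheath against peripheral pulp gave 3 higher and 6 lower (all genes 20.2% and 39.1%), sheath against central pulp 6 higher and 6 lower (all genes 22.9% and 33.6%), and peripheral against central pulp 3 higher and 2 lower (all genes 15.6% and 9.51%). MSX1, a homeobox gene that BMPs induce in many tissues, was at 3.03 ± 0.870 TPM in the papilla and 3.31 ± 0.993 TPM in the sheath, against 107 ± 24.1 TPM in peripheral pulp and 171 ± 23.1 in central pulp. The activin and BMP receptor ACVR2B showed the same split, at 0.751 ± 0.886 and 0.127 ± 0.220 TPM against 19.0 ± 6.23 and 33.1 ± 9.22 TPM. SMAD6, an inhibitory SMAD, and ID2, an inhibitor of basic helix-loop-helix factors that BMPs induce, were higher in papilla than in sheath (1.53 ± 0.10 and 1.81 ± 0.12, adjusted p = 9.5e-07 and 1.6e-06). In experiment 2, 9 higher and 3 lower (all genes 22.4% and 30.8%) were called in late against early growth pulp, 0 higher and 9 lower (all genes 8.77% and 22.3%) in near resting against late growth and 6 higher and 4 lower (all genes 18.7% and 37.3%) in near resting against early growth pulp. In the resting apical papilla the calls were 6 higher and 4 lower (all genes 40.9% and 21.6%) against near resting pulp, 3 higher and 9 lower (all genes 32.5% and 25.8%) against late growth pulp and 7 higher and 6 lower (all genes 32.1% and 33.6%) against early growth pulp. MSX1 was lower in the resting apical papilla, at 3.95 ± 0.382 TPM, against 65.8 ± 40.3 TPM in near resting pulp (-3.61 ± 0.32, adjusted p = 4.5e-05).

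**Figure D5:**
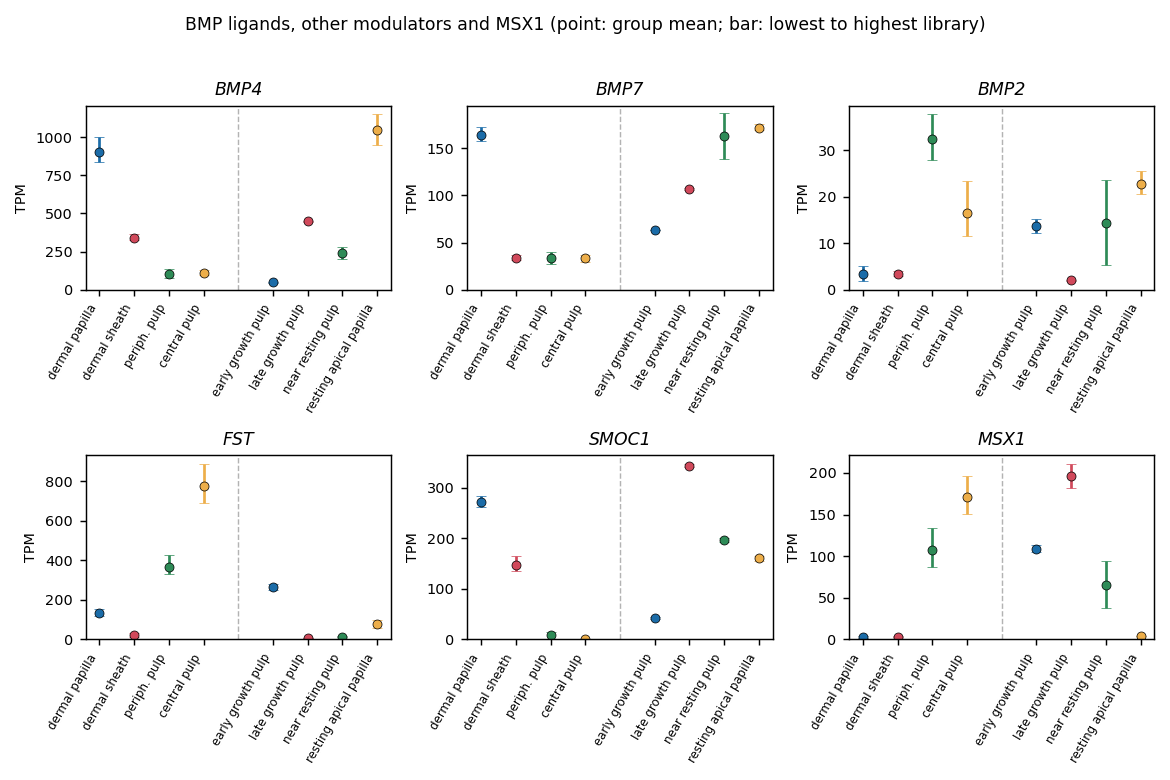
TPM of BMP4, BMP7, BMP2, FST, SMOC1 and MSX1 in the 8 groups (points are group means, bars run from the lowest to the highest library), with experiment 1 left of the dashed line and experiment 2 right of it. BMP4 is highest in the growing papilla (900.2 TPM) and in the resting apical papilla (1044 TPM), each within its own table.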

How the data were processed

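Total RNA was isolated with TRIzol, and TruSeq kits served for library preparation, per the labels' protocols. The authors deposited 1 table of TPM values per gene and library for each experiment. Per the submitters' processing notes the tools include Cuffdiff 2.2.1.3, TopHat2 2.1.1 and Cufflinks 2.2.1.2, whose roles are unstated. Build and annotation: not given in the sources used here. No coordinates or sequences are therefore printed. Because TPM is relative within a library, more of an abundant gene means less of the others.

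Columns were matched to samples by title. Contrasts were tested on log2(TPM + 1) with limma 3.58.1 in R 4.3.3, fitting 1 mean per group to an experiment's libraries together, with trended, robust variances (8 and 5 residual degrees of freedom). The SE of a contrast therefore pools the spread within all groups of the experiment, also those not compared. Genes needed 1 TPM in at least 3 libraries (experiment 1, 13804 genes) or 2 libraries (experiment 2, 14915 genes). P-values were adjusted by Benjamini-Hochberg over all genes of a contrast and called under 0.05, two-sided. Simulated data with known changes served to test the limma code. Members, gene lists and tests were chosen with earlier results of these data known. Named pathway genes were the 4 with the smallest F test p in each list, in each experiment for the further modulators and in experiment 1 for the other lists. Genes nearest in pattern were the top 3 by correlation, at 10 TPM or more in their highest group. The alternatives were a pseudocount of 0.1, no filter, a 5 TPM filter, 2 other scalings, plain variances, a replicate block, only the 2 groups compared, and leaving out each library.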

Additional observations from a re-analysis of the deposited data

How the results depend on the processing

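All 9 members were called in the F test of each experiment under every alternative that gave an F test, which the fit of 2 groups did not. With the main settings 76.3% and 85.0% of all genes were called in these tests. For the pairwise contrasts the shares of all genes called are given above with each contrast. The 44 member calls in the pairwise contrasts of experiment 1 ranged from 42 to 46 over the alternatives and leave-outs, and the 40 calls of experiment 2 from 39 to 45. Of these, 41 of 44 and 37 of 40 stayed called under the alternatives other than leave-outs, wherever these gave a value (the fit of 2 groups drops the libraries of the others), 40 of 44 and 38 of 40 in each leave-out, and none changed direction. NOG did not pass the filter in the fit of peripheral and central pulp alone. Values that changed direction were all of differences not called with all libraries, and the cause was not tested. In the resting apical papilla against late growth pulp, SOSTDC1 was -0.10 with median-of-ratios scaling and -0.0032 with the replicate block, and SMOC2 was 0.17 with quantile normalization. Against near resting pulp, TWSG1 was 0.026 with quantile normalization and NOG 0.0060 with the replicate block. With 1 library left out, sheath against central pulp ranged from -0.043 to 0.13 for TWSG1 and from -0.58 to 0.10 for BMPER, and BMPER in peripheral against central pulp from -0.21 to 0.47. SOSTDC1 ranged from -0.79 to 1.51 in near resting against late growth pulp, from -1.51 to 0.79 in the resting apical papilla against near resting pulp and from -0.053 to 0.066 against late growth pulp. NOG ranged from -0.17 to 0.0060 and TWSG1 from -0.043 to 0.027 in the resting apical papilla against near resting pulp.

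Deviations of same-numbered libraries correlated weakly, at -0.085 to 0.143 in experiment 1 and -0.040 to 0.113 in experiment 2. In these, 6 of 12 and 4 of 9 libraries correlated best with one of their own number. How many would do so without any pairing was not computed, so the counts alone show none. In groups of 2 libraries the 2 deviations mirror each other, so the check says little in experiment 2. It cannot exclude a pairing. The labels state none, and none was assumed. With the replicate block 46 and 39 pairwise member calls were made and 9 and 9 members were called in the F tests. Median-of-ratios scaling moved the median of all genes by -0.25 to 0.25 (log2) and quantile normalization by -0.13 to 0.18, so small differences depend on the scaling. TPM keeps no depth, so what depth limits is unknown, and groups of 2 libraries leave near resting pulp resting on a pair that differed.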
